A study of Mus musculus with 10 samples.

Results

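Replication-dependent histone genes were followed in MLL-AF9 cells, with and without induction of miR-139 by doxycycline (DOX). The genes were chosen by symbol: protein-coding genes of the count table whose mouse symbol begins with Hist1h, Hist2h, Hist3h or Hist4h and that held at least 10 counts in total over 10 libraries. Of 52550 genes in the table, 67 had such a symbol and 58 passed the minimum, namely 6 of class H1, 14 of H2A, 16 of H2B, 10 of H3 and 12 of H4. The Hist1 group on chromosome 13 gave 51 of them, the Hist2 group on chromosome 3 gave 5, and Hist3 on chromosome 11 and Hist4 on chromosome 6 gave 1 each. Just inside the minimum were Hist3h2ba with 36 counts in total, Hist1h1t with 122 and Hist1h2ap with 127, and just outside it was Hist1h2ba with 4. The remaining 8 genes (Hist1h2aa, Hist1h4b, Hist2h2aa1, Hist2h2aa2, Hist2h2bb, Hist2h3b, Hist2h3c1 and Hist3h2a) were listed at 0 counts, and the exons of 7 of these 8 lay wholly within the bodies of other annotated genes.

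The cells were bone marrow cells of C57BL/6 mice, enriched for hematopoietic stem and progenitor cells (HSPCs) and transformed by retroviral MLL-AF9. By the growth protocol in the labels of all samples, they also carried the tetR-KRAB repressor and were grown with SCF, GM-CSF, IL-6 and IL-3. That protocol names the miR-139 vector alone, and it describes the picking of colonies for MLL-AF9-i139, so how the control clone was made is not given in the sources used here. MLL-AF9-i139 cells held a DOX-inducible miR-139 vector, and 3 clones were sequenced once without DOX (noDox) and once with 5 µg/mL DOX, given for 48 h to clones 1 and 2 and for 72 h to clone 3. The labels give no culture time for the untreated MLL-AF9-i139 libraries, so the clone and the length of treatment cannot be told apart for clone 3. In the control, MLL-AF9-ieGFP, DOX induced eGFP instead, and 1 clone was sequenced at 48 h and at 72 h with and without DOX, so its 2 libraries per group are time points of that clone and not separate clones.

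Histone genes of this kind supply the core histones H2A, H2B, H3 and H4 and the linker histone H1 that package newly made DNA, and cells express them mainly in S phase. NPAT and its partners drive their transcription, and their mRNAs carry no poly(A) tail. The mRNAs end instead just after a short stem-loop that is bound by the stem-loop binding protein SLBP, and they are degraded when DNA synthesis stops.

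Ribosomal RNA was removed before the libraries were made, without selection for poly(A) tails, so such mRNAs were counted. Total counts ranged from 35133308 to 47089725 per library. Of 15 markers of myeloid progenitors none was at 0, and their summed level was 3476 to 5142 CPM (counts scaled to a common library size) in untreated MLL-AF9-i139 libraries and 5059 to 7445 CPM with DOX. The summed markers of T cells (6 genes), erythroid cells (7) and stroma (5) reached at most 5.16 CPM in any of the 10 libraries. Those of B cells (6) were 9.13 to 12.0 CPM without DOX and 2.75 to 5.89 CPM with DOX in MLL-AF9-i139. In MLL-AF9-ieGFP the B cell sum was higher, at 15.4 to 26.1 CPM without DOX and 13.5 to 19.7 CPM with DOX. The summed markers of megakaryocytes (5 genes) were 3.01 to 4.90 CPM without DOX and 6.27 to 7.96 CPM with DOX in MLL-AF9-i139. The defining globin markers Hba-a2, Hbb-bs and Hbb-bt, Ms4a1 of B cells and Ppbp of megakaryocytes were at 0 counts. How reads that match several genes were counted is not given in the sources used here, so 0 counts need not mean no expression. Mir139 itself was listed at 0 counts in the 10 libraries, so its induction could not be checked here.

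The stem-loop was looked for in the annotated transcripts as a stem of 6 bases that begins with GG followed by pyrimidines, a loop of 4 bases that begins with T and a pyrimidine, and the bases that pair with the first stem strand. A match was present in 41 of the 58 genes, and in 20 of the 58 it lay within the last 120 bases of a transcript, against 3 of 21884 other protein-coding genes. A missing match says only that these letters are not in the model. The 30 matches outside class H4 all opened with GGCTCT, whereas of the 11 in class H4, 10 opened with GGCCCT and 1 with GGTCCT. For 6 of the genes described below the sequence is shown to make that difference visible, 5′ to 3′ as DNA letters from GENCODE M21 (GRCm38), with the stem and loop in capitals. Each of these genes has 1 exon, and the match lay 46 to 2445 bases before the end of the annotated model.
Hist1h1c (chr13:23738808-23740367, + strand): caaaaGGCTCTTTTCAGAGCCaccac
Hist2h2ac (chr3:96220361-96220880, - strand): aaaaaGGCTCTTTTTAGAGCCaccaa
Hist1h2bm (chr13:21722044-21722567, + strand): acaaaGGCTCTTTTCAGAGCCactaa
Hist1h3e (chr13:23561534-23562369, - strand): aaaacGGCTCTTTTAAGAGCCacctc
Hist1h4d (chr13:23581598-23582735, + strand): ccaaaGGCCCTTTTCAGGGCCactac
Hist4h4 (chr6:136801553-136804415, - strand): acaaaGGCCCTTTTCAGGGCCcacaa

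The genes also resemble each other within a class, which limits how well single genes were counted. A median of 49.6% of the 50-base stretches of a member occurred in transcripts of other genes, with 28 of 58 genes above 50% and 4 (Hist1h1a, Hist1h1b, Hist1h1t and Hist2h2be) at 0. How the authors' counting treated reads that match several copies is not given in the sources used here, so values of single H2A, H2B, H3 and H4 genes with shared stretches are uncertain and are best read by class. All 14 H2A members, but only 1 of 16 in H2B, 1 of 6 in H1 and none in H3 or H4, had exons that overlap another annotated gene.

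Histone mRNAs were abundant in these cells. The 58 genes took 0.699% to 1.19% of all counts in a library, and 36 of them had a mean level of at least 100 CPM over the 10 libraries. CPM values here are scaled by the TMM method of edgeR. Class H4 gave 29.8% to 32.8% of the members' counts, H1 22.9% to 25.8%, H2B 18.9% to 20.3%, H3 16.9% to 18.4% and H2A 6.32% to 6.99%. The order of the classes was the same in each of the 10 libraries. Hist1h4d had the highest mean, at 722 CPM, followed by the linker histone genes Hist1h1d at 626 CPM, Hist1h1c at 583 CPM and Hist1h1e at 575 CPM. Per kilobase of annotated exon the order changed. Hist1h4k, whose model of 312 bases is the shortest of the members, came first with a mean of 1061 CPM per kb. Hist1h1d, whose model is 7425 bases long, had 84.3 CPM per kb. Values per kb therefore depend on the length of the annotated model as well as on the level. The median member had 360.1 CPM per kb in class H4, 336 in H1, 261 in H3, 174 in H2B and 85.2 in H2A. In H2A every member overlaps another annotated gene in part of its exon sequence, and an effect of this on the level was not tested.

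Whether induction of miR-139 changed the level of these mRNAs was asked first for their sum. In MLL-AF9-i139 the summed level was 9304, 10525 and 11945 CPM in clones 1, 2 and 3 without DOX and 6731, 7475 and 10381 CPM with DOX. Each clone was lower with DOX, and clones 1, 2 and 3 changed by -27.7%, -29.0% and -13.1%, but the groups overlapped, because clone 3 with DOX lay above clone 1 without it. The group means were 10591 ± 1322 and 8196 ± 1929 CPM (SD, n = 3 each), a ratio of 0.774. In MLL-AF9-ieGFP the sum was 9493 CPM at 48 h and 11782 CPM at 72 h without DOX, and 10497 and 12320 CPM with DOX, so it was 10.6% and 4.57% higher with DOX. In bulk RNA, fewer cells in S phase and less histone mRNA per cell cannot be told apart.

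**Figure D1:**
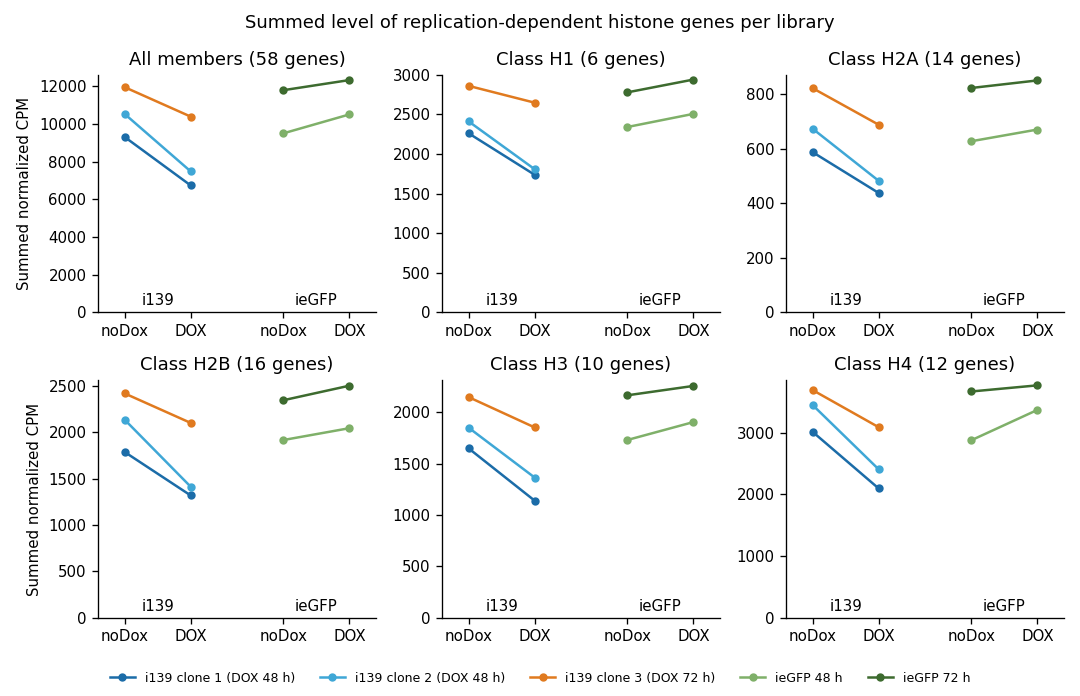
Summed level of the 58 genes and of each class in every library, on the y axis in CPM, against treatment on the x axis for MLL-AF9-i139 and MLL-AF9-ieGFP; each line joins the untreated and DOX library of 1 clone or time point. The 3 MLL-AF9-i139 lines fall in every panel, least in clone 3, and both MLL-AF9-ieGFP lines rise.

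In each of the 5 classes the sum was lower with DOX in all 3 clones. In clones 1, 2 and 3 the sum changed with DOX by -23.2%, -25.1% and -7.43% in H1, by -25.5%, -28.4% and -16.3% in H2A, and by -26.2%, -33.9% and -13.2% in H2B. The changes were -30.9%, -26.3% and -13.8% in H3 and -30.5%, -30.3% and -16.3% in H4. Clone 3, the clone treated for 72 h, showed the smallest difference in all 5 classes. In the control clone the 72 h libraries were above the 48 h libraries both with and without DOX, with 1 library at each point, and this difference was not tested.

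Gene by gene, 56 of the 58 had a negative log2 fold change in MLL-AF9-i139, with a median of -0.40 beside 0.01 over all 19223 genes tested. The range ran from -0.999 for Hist1h2ap to 0.60 for Hist2h2be. Per clone the median log2 ratio was -0.47, -0.56 and -0.23, and 49 genes (84.5%) were lower in all 3 clones, where 26.5% of all genes tested were. Groups that did not overlap, with all 3 DOX libraries below all 3 untreated ones, were seen for 9 members (15.5%), beside 12.8% of all genes. Across the 55 members with a mean of at least 1 CPM, the log2 ratios of clones 1 and 2 had a Pearson r of 0.582, those of clones 1 and 3 of 0.731 and those of clones 2 and 3 of 0.674. These members share sequence and are not independent, so the correlations are a description.

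In the edgeR quasi-likelihood test without a block, 0 of the 58 genes passed an adjusted p of 0.05 (background 0.0052% lower), and the smallest adjusted p was 0.0889, for Hist1h1a. At an unadjusted p under 0.05 there were 15 lower (25.9%, against 9.22% of all genes) and 1 higher, Hist2h2be (against 11.4%). DESeq2 called 5 lower at an adjusted p under 0.05 (background 3.07%): Hist4h4, Hist1h1a, Hist1h4j, Hist1h4n and Hist2h4, the last 2 named after their values were seen. Libraries of 1 clone resembled each other, and with the clone as a block edgeR called 33 of 58 lower (56.9%, against 5.33% of all genes) and 0 higher (against 7.05%). The blocked calls fell to 1 without clone 1 and 2 without clone 2, and without clone 3 they were 48 lower and 1 higher. The shares of all genes called in these blocked fits were not determined, so these counts cannot be set against other genes. Without clone 3 the unblocked test also called 41 of 57 lower (background 10.1%), so the calls without a block depended on that clone.

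**Figure D2:**
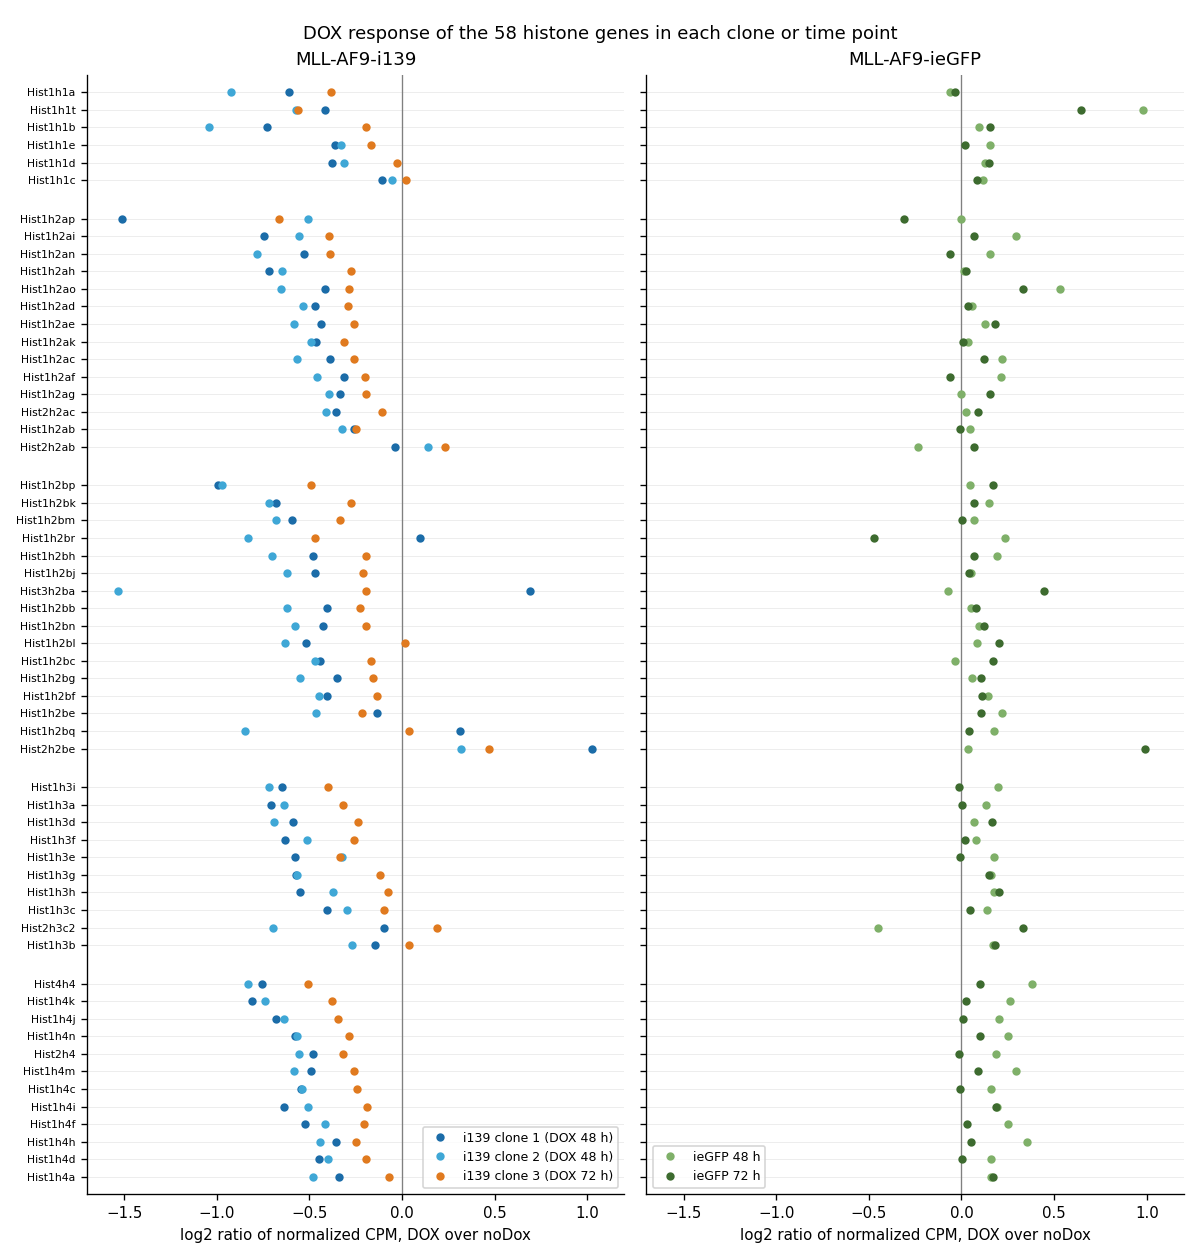
Log2 ratio of DOX over untreated CPM on the x axis for each of the 58 genes on the y axis, grouped by class from H1 at the top to H4 at the bottom; each point is 1 clone (MLL-AF9-i139, left) or time point (MLL-AF9-ieGFP, right). Most points lie left of 0 for MLL-AF9-i139, with clone 3 nearest to it, and slightly right of 0 for MLL-AF9-ieGFP.

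**Figure D3:**
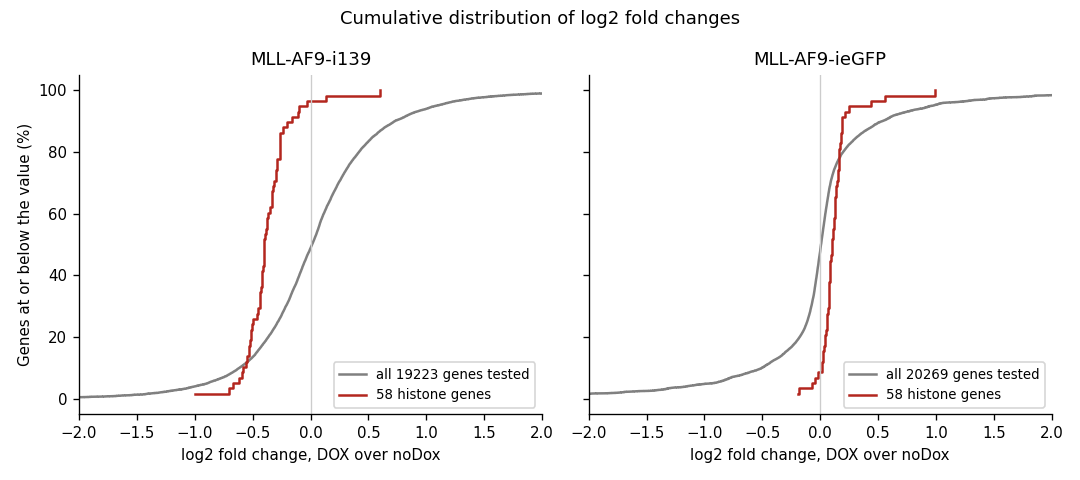
Cumulative percentage of genes on the y axis by log2 fold change on the x axis, for the 58 histone genes and for all genes tested, in MLL-AF9-i139 (19223 genes) and MLL-AF9-ieGFP (20269 genes). The histone curve stands left of the curve of all genes in MLL-AF9-i139, with medians of -0.40 and 0.01.

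Class H4, the core histone with the most members called, had 11 of 12 genes lower under the clone block and 7 of the 9 members without overlap. Of all genes, 5.33% were lower under the block, which applies to the counts of each class below, and 12.8% were lower without overlap. Hist4h4, the single H4 gene on chromosome 6, had 179.6, 199 and 217 CPM without DOX in clones 1, 2 and 3, and 106, 112 and 153 CPM with DOX. The groups did not overlap, with means of 199 ± 18.9 and 124 ± 25.4 CPM (SD, n = 3). Its log2 fold change was -0.67 (SE 0.152) without a block, at an edgeR adjusted p of 0.105, and -0.69 (SE 0.0887) with the clone block, at 0.0179, the smallest of all members. Hist1h4j went from 186, 214 and 223 CPM to 116, 137 and 175 CPM, and Hist1h4k from 309.9, 356 and 431 CPM to 177, 214 and 332 CPM. Both fell under the block, with log2 fold changes of -0.54 and -0.63. The 3 most abundant H4 members were also lower in each clone. Hist1h4d had 668, 751 and 833 CPM without and 489.8, 569 and 729 CPM with DOX. Hist1h4h went from 399, 466 and 449 CPM to 311, 343 and 379 CPM, and Hist1h4c from 361, 423 and 407 CPM to 247, 292 and 343 CPM. These 3 genes fell under the block at adjusted p values of 0.0429, 0.038 and 0.0306. Over all members the median log2 fold change without a block was -0.39 above the median level and -0.40 at or below it.

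Of the 6 linker histone genes, 2 were lower under the block, Hist1h1a and Hist1h1b, the latter named after its value was seen, at an adjusted p of 0.0394. Hist1h1a, which shares no 50-base stretch with another gene, had 368, 388 and 349 CPM without DOX and 241, 205 and 267 CPM with DOX, without overlap. Its log2 fold change with the block was -0.63 (SE 0.108, edgeR adjusted p 0.0257). Hist1h1c, also known for polyadenylated mRNA in cells that no longer divide, had 518, 539.6 and 665 CPM without and 480.5, 519.6 and 676 CPM with DOX. Its groups overlapped almost wholly, and its log2 fold change of -0.03 (SE 0.0729 with the block) did not pass the test. Hist1h1c therefore stood at 141%, 139% and 191% of Hist1h1a within the untreated libraries of clones 1, 2 and 3, and at 199.6%, 254% and 253% with DOX. In MLL-AF9-ieGFP the same share was 138% at 48 h and 192% at 72 h without DOX, and 156% and 208% with DOX. Hist1h1e, at 592 ± 85.3 CPM without and 489 ± 108 CPM with DOX (SD, n = 3), and Hist1h1d, at 634 ± 100.2 and 548 ± 163 CPM, had log2 fold changes of -0.27 and -0.23 with the block and did not pass it. Hist1h1t, the testis linker histone, had 0.132 to 0.735 CPM over the 10 libraries.

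**Figure D4:**
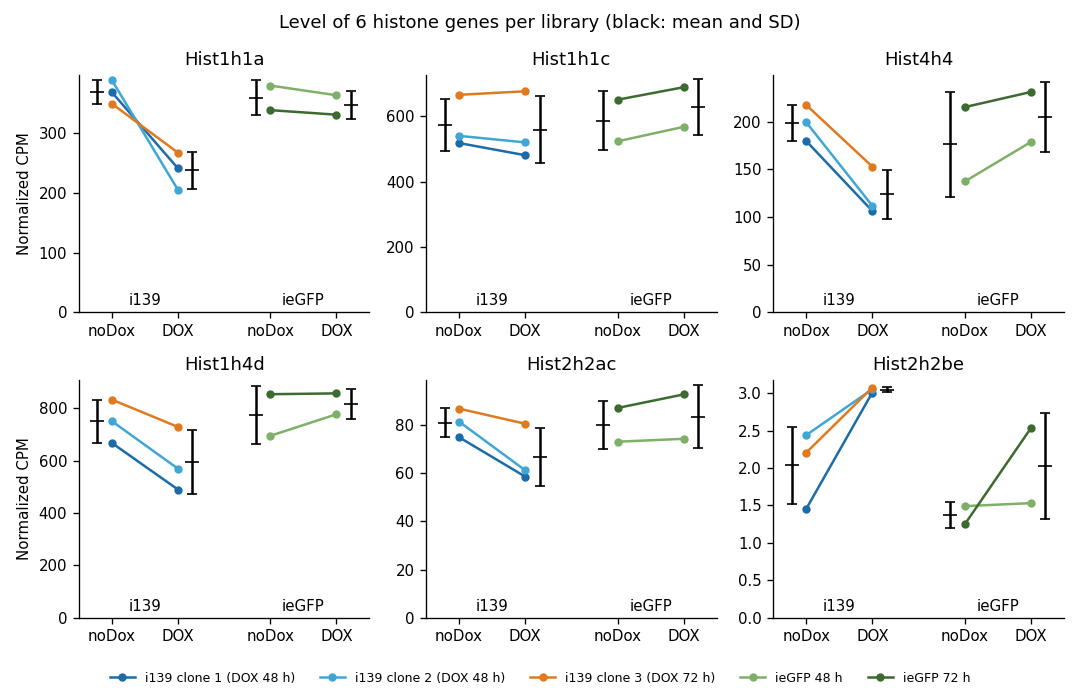
Level of 6 genes in every library, on the y axis in CPM, against treatment on the x axis; lines join the libraries of 1 clone or time point, and black bars give the mean and SD of each group (n = 3 for MLL-AF9-i139, n = 2 for MLL-AF9-ieGFP). Hist1h1a, Hist4h4, Hist1h4d and Hist2h2ac fall in each MLL-AF9-i139 clone, Hist1h1c lies almost level and Hist2h2be rises.

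In class H3, 5 of 10 genes were lower under the block. Hist1h3i went from 90.6, 94.5 and 132 CPM to 57.8, 57.4 and 100.2 CPM, and Hist1h3a from 146, 155 and 183 CPM to 89.6, 99.9 and 147 CPM. Both fell under the block, with log2 fold changes of -0.58 and -0.54, and were lower in each clone, although the groups overlapped. The more abundant Hist1h3e and Hist1h3f also fell, with -0.40 and -0.46. Hist1h3c, with -0.25, did not pass, and Hist1h3b had 135, 158 and 174 CPM without and 121, 131 and 179 CPM with DOX, a log2 fold change of -0.11 at an adjusted p of 0.416 with the block.

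In class H2B, 8 of 16 genes were lower under the block. Hist1h2bm had 163, 202 and 229 CPM without and 108, 126 and 181 CPM with DOX, a log2 fold change of -0.52 (SE 0.0905). The abundant Hist1h2bn (278 ± 35.1 to 214 ± 52.2 CPM) and Hist1h2bb (277 ± 48.7 to 210.3 ± 57.4 CPM; SD, n = 3) fell under the block, with log2 fold changes of -0.39 and -0.41, while Hist1h2bg, with -0.34, missed the threshold at an adjusted p of 0.0564. Hist1h2bp had the lowest log2 fold change of this class, -0.80 with the block, at 9.37, 9.44 and 20.4 CPM without and 4.68, 4.78 and 14.5 CPM with DOX. Hist1h2bc, also known for polyadenylated mRNA, had 133, 161 and 176 CPM without and 97.6, 117 and 156 CPM with DOX, and fell under the block, with a log2 fold change of -0.35 and an adjusted p of 0.0471. Hist3h2ba had 0 to 0.152 CPM over the 10 libraries, where 3 counts correspond to 0.0615 to 0.0870 CPM, and no direction could be read from it.

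In class H2A, 7 of 14 genes were lower under the block. Hist1h2ai had 47.1, 57.4 and 66.1 CPM without and 28.1, 38.9 and 50.3 CPM with DOX, a log2 fold change of -0.55 (SE 0.0949). Of the 3 most abundant genes, Hist1h2ak fell under the block, with a log2 fold change of -0.41, whereas Hist1h2ab with -0.27 and Hist2h2ac with -0.28 did not pass. Hist2h2ab had 3.18, 4.06 and 3.32 CPM without and 3.09, 4.48 and 3.91 CPM with DOX, with overlapping groups. Its log2 fold change without a block was 0.13, the only positive one in this class. Hist1h2ap had the lowest log2 fold change of all, -1.03 with the block (SE 0.423), but at 0.0835 to 0.431 CPM it did not pass, with an adjusted p of 0.148.

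Besides Hist2h2ab, only Hist2h2be had a positive log2 fold change. This H2B gene of chromosome 3, known for polyadenylated mRNA in differentiated cells, had 1.46, 2.44 and 2.21 CPM without DOX in clones 1, 2 and 3 and 3.01, 3.05 and 3.07 CPM with DOX, from 71 to 144 counts per library. It was the only member higher in all 3 clones, and its groups did not overlap. The log2 fold change was 0.60 (SE 0.247), at an edgeR adjusted p of 0.226 without a block and of 0.0849 with it, so it passed neither test. In MLL-AF9-ieGFP it had 1.49 CPM at 48 h and 1.25 CPM at 72 h without DOX and 1.53 and 2.53 CPM with DOX, so the 72 h control was also higher with DOX. Its difference between the constructs was 0.02 on the log2 scale, at an adjusted p of 0.995. Of the other genes listed as known for polyadenylated mRNA, Hist2h2aa1 was at 0 counts.

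Many H2A and H2B genes lie head to head and share the stretch between their starts. In 11 such pairs the starts were 176 to 302 bases apart. In 10 of the 11 pairs both genes had negative log2 fold changes, and in 8 the partners differed by at most 0.2 on the log2 scale. The pair Hist2h2ac and Hist2h2be, with 239 bases between the starts, differed most, at -0.27 and 0.60. Within a library Hist2h2be stood at 1.94%, 3.00% and 2.54% of Hist2h2ac without DOX in clones 1, 2 and 3 and at 5.13%, 4.98% and 3.82% with DOX. In MLL-AF9-ieGFP the share was 2.04% at 48 h and 1.43% at 72 h without DOX and 2.06% and 2.73% with DOX, so it was also higher with DOX in the 72 h control. Neither gene passed the test, and the difference within the pair was not tested. The shared stretch is shown because the fold changes of this pair lay furthest apart of the 11. The sequence is the RefSeq promoter window of Hist2h2ac (H2ac20 in newer naming; GRCm38.p6, chr3:96220831-96221130, - strand), which runs from 250 bases before its start to 50 after it and includes the start of Hist2h2be, with matches to TATAAA, to CCAAT (or ATTGG on the other strand) and to ATTTGCAT (here ATGCAAAT) in capitals, none of which overlap.
Hist2h2ac promoter: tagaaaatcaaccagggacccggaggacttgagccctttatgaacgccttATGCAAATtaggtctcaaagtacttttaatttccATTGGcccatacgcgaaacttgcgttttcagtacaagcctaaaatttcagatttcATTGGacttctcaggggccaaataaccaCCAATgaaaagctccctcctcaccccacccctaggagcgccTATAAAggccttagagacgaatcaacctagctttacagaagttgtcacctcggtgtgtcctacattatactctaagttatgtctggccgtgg

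Promoter windows of the same length were found for 53 of the 58 genes. TATAAA, read on the strand of the gene, was in 27 of 53 (50.9%) against 8.88% of all 27025 windows. CCAAT, on either strand, was in 45 of 53 against 37.9% of all windows: in every window of classes H1, H2A, H2B and H3, but in 3 of 11 of class H4. The octamer ATTTGCAT, on either strand, known as an H2B promoter element, was in 4 of 14 H2B windows, 5 of 14 H2A windows and none of the other classes, against 1.75% of all windows. The median log2 fold change was -0.40 in members with TATAAA and -0.39 in those without it, and -0.39 with and -0.40 without the octamer. Along chromosome 13 the members lie in 3 groups, in order of position with 18, 5 and 28 genes, whose median log2 fold changes were -0.48, -0.40 and -0.34.

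Matches to the seed of the induced microRNA were rare in these short transcripts. The mature miR-139-5p (RefSeq, GRCm38.p6, chr7:101475382-101475403, + strand), with its seed in capitals, is
mmu-miR-139-5p: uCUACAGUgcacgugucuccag
The complement of that seed, ACTGTAG, occurred in the longest transcript of 3 of 58 members (5.17%; Hist1h1d, Hist1h2bc and Hist1h3g), against 20.4% of 14652 protein-coding genes with at least 10 counts. Per kb of transcript the members had 0.0700 matches and all these genes 0.0657. The 3 genes with a match had log2 fold changes of -0.20, -0.33 and -0.37, and the median of all members was -0.40. For miR-139-3p the letters CGTCTCC occurred in 2 members (3.45%; Hist1h1d and Hist1h2be), against 13.6% of the same genes.

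In MLL-AF9-ieGFP, where DOX induced eGFP, the median log2 fold change of the 58 genes was 0.10, beside 0.01 over the genes tested. The edgeR test called 0 members at an adjusted p under 0.05 (background 0.0%) and 0 at an unadjusted p under 0.05 (background 1.28%), and DESeq2 also called 0. With the time point as a block 1 member, Hist4h4, had an unadjusted p under 0.05, with the higher value under DOX, and 0 passed the adjusted threshold.

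Whether the response to DOX differed between the constructs was tested as an interaction. The control was 1 clone at 2 time points, so the construct and that clone cannot be told apart. The median difference, MLL-AF9-i139 minus MLL-AF9-ieGFP, was -0.49 on the log2 scale. Without a block 0 members passed an adjusted p of 0.05 in edgeR (background 0.0%), 8 had an unadjusted p under 0.05 with the lower value in MLL-AF9-i139 (13.8%, against 4.21% of all genes), and DESeq2 called 0. With clone and time point as a block, 50 of 58 had an unadjusted p under 0.05 (86.2%, against 9.65%), but 1 passed the adjusted threshold (background 0.0247%). This was Hist4h4, with a difference of -0.94 (SE 0.135, edgeR adjusted p 0.0303), at 137 and 215 CPM without and 179 and 231 CPM with DOX in MLL-AF9-ieGFP. Without clone 3 the unblocked test called 15 members, and the share of all genes called in that fit was not determined.

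Other genes of S phase were lower as well. Of 25 genes of DNA replication and the G1/S boundary that were tested (3 more, Cdt1, Gins2 and Tk1, were listed at 0 counts), 13 were lower and 0 higher under the clone block. How reads of overlapping genes were counted is not given, so the 0 counts of Cdt1, Gins2 and Tk1 need not mean no expression. Under the block 5.33% of all genes were lower and 7.05% higher, and without it 0 of the 25 passed. The median log2 fold change was -0.38, with clone medians of -0.54, -0.56 and -0.16. Uhrf1, which keeps DNA methylation through replication, had 381, 431 and 406 CPM without and 232, 243 and 341 CPM with DOX. Cdc6, a loading factor of replication origins, had 86.4, 88.4 and 87.0 CPM without and 51.7, 57.8 and 71.7 CPM with DOX, and Rfc4, of the clamp loader, had 50.5, 50.4 and 49.7 CPM without and 31.9, 33.7 and 41.6 CPM with DOX. None of the 3 overlapped between groups, and all fell under the block, with adjusted p values of 0.0296, 0.0294 and 0.0327. Of the 25 genes, 19 had all DOX libraries below the untreated ones, against 12.8% of all genes. Genes of G2 and mitosis had a median of -0.26, with 3 of 18 lower under the block: Kif20a, Hmmr and, named after its value was seen, Cdca8. Without the block 0 of these 18 passed.

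Of 20 genes tested from the machinery that makes and processes histone mRNA, 3 were lower under the block and 0 higher, with a median of -0.21: Ncbp1, which binds the mRNA cap, Srrt, its partner, and Cpsf3, the nuclease that cuts the 3′ end, had log2 fold changes of -0.37, -0.36 and -0.32. Under the block 5.33% of all genes were lower and 7.05% higher, and without it 0 of the 20 passed. Slbp had 72.3, 74.3 and 67.6 CPM without and 63.1, 61.6 and 60.7 CPM with DOX, without overlap, and a log2 fold change of -0.20 that did not pass (adjusted p 0.145 with the block). Npat had -0.22, Casp8ap2 -0.25 and Hinfp 0.22 with the block, and none of them passed. Of 21 histone chaperones and importers tested, 7 were lower and 0 higher under the block, with a median of -0.24. Without the block 0 of these 21 passed. Hat1, which acetylates new H4, went from 68.4, 72.5 and 61.6 CPM to 48.7, 47.1 and 50.01 CPM, and Supt16, of the FACT complex, from 276, 282 and 289.8 CPM to 188, 186 and 248 CPM. Both fell under the block, at adjusted p values of 0.0297 and 0.033, and Rbbp7 missed it at 0.0515.

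Histone variants that are made outside S phase had a median log2 fold change of 0.05 over 10 genes tested, with 1 lower and 2 higher under the block. Under the block 5.33% of all genes were lower and 7.05% higher, and without it 0 of the 10 passed. H2afx, whose mRNA is known in a form with the stem-loop as well as a polyadenylated one, had 350.4, 383 and 409.9 CPM without and 217, 255 and 343 CPM with DOX, and fell under the block, with a log2 fold change of -0.50 (adjusted p 0.0293). H2afj, a replication-independent H2A, had 59.4, 69.1 and 66.3 CPM without and 80.7, 108 and 83.5 CPM with DOX, and rose by 0.48 (adjusted p 0.0282). H1f0, the linker histone of resting cells, which was named after its value was seen, rose by 0.42 (adjusted p 0.0422). H2afy had 0.30 and did not pass. Other RNAs without a poly(A) tail showed no common direction, with a median of -0.01 over 10 genes and 0 called by edgeR with the block, of which 2, Rn7sk and Terc, had an unadjusted p under 0.05. Rn7sk had 5271, 6327 and 4756 CPM without and 7258, 7090.1 and 5286 CPM with DOX, with overlapping groups.

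**Figure D5:**
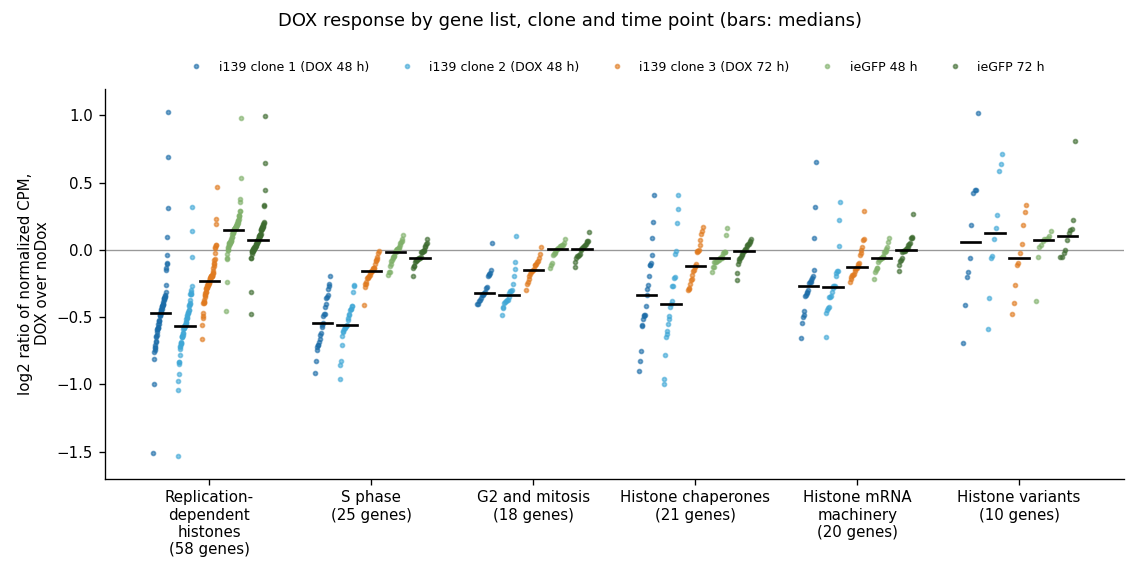
Log2 ratio of DOX over untreated CPM on the y axis for each gene (points) of 6 lists on the x axis, by clone or time point, with medians as black bars. The medians of the histone and S phase genes are -0.47 and -0.54 in clone 1, -0.56 and -0.56 in clone 2 and -0.23 and -0.16 in clone 3, and the medians of the variants lie near 0.

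Markers of myeloid cells moved in the same comparison. Of 14 tested, 7 were higher and 1 was lower under the block, against 7.05% and 5.33% of all genes. The median log2 fold change was 0.57, with clone medians of 0.73, 0.66 and 0.29. The log2 fold changes ran from -0.35 to 4.53, and 3 of the 14 were negative. Mpo, the myeloperoxidase of granulocyte precursors, had 414, 615 and 579.8 CPM without and 1306, 1244 and 1669 CPM with DOX. Of 3 megakaryocyte markers tested 2, Gp1ba and Gp9, were higher under the block, at no more than 4.98 CPM in any MLL-AF9-i139 library. Of 4 B cell markers tested 1, Ighm, was lower, from 10.7, 8.18 and 7.93 CPM to 4.85, 1.53 and 4.34 CPM. Without the block 0 of these markers passed. The part of the markers in the histone values was not tested.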

How the data were processed

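RNA of 10 cultures was sequenced after removal of ribosomal RNA (KAPA RNA HyperPrep with RiboErase). The authors aligned the reads with STAR 2.5.3e to GRCm38 and counted them with featureCounts 1.6.0 on GENCODE M15, and the deposited values are raw counts per gene. Strand, multimapping and overlap settings are not given in the sources used here. 14 columns of other samples were not used.

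Here genes with at least 10 counts in total were tested with edgeR 4.0.16 (TMM, quasi-likelihood test, Benjamini-Hochberg, threshold 0.05) in R 4.3.3, on 19223 genes in the 6 MLL-AF9-i139 libraries and on 20269 in a fit of 4 groups and 10 libraries for MLL-AF9-ieGFP and the difference between constructs. Log2 ratios per clone or time point used a prior count of 2. DESeq2 1.42.0, other scalings and filters, a clone or time point block and leaving out replicates were alternatives. Symbols, exons and transcripts came from GENCODE M21 (GRCm38), and promoters and microRNAs from RefSeq. On simulated MLL-AF9-i139 counts without clone effects (18920 genes) the unblocked fit recovered 91.95% of 2-fold and 100.0% of 4-fold changes. With clone effects it recovered 12.15% and 95.7% (18882 genes), and the blocked fit 97.96% and 100.0% (18920 genes). The simulated clone effects were equal with and without DOX, as the blocked fit assumes, and each change was the same in every clone. The simulation therefore does not show how either fit treats changes under 2-fold or a response that differs between clones, as seen for the histone genes.

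Clone numbers pair the MLL-AF9-i139 libraries: deviations from the group means correlated at 0.378, 0.285 and 0.411 within clones 1, 2 and 3 and at -0.313 to -0.0433 between clones, and the label number names the clone. Because group means were subtracted, positive values within clones bring negative ones between clones, so the latter are not separate evidence of pairing. Total counts of 35133308 to 47089725 set the precision, and 3 counts correspond to 0.0615 to 0.0870 CPM. Replicates are clones in MLL-AF9-i139 and time points of 1 clone in MLL-AF9-ieGFP. The p-values for MLL-AF9-ieGFP come from the fit of 10 libraries, which share 1 estimate of the spread. They do not measure the spread between MLL-AF9-ieGFP clones, because only 1 was sequenced.

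Members and lists were chosen with earlier results of these data known. Genes named in the text were the 3 most abundant members of each class, the 4 highest and 4 lowest log2 fold changes among members with a mean of at least 10 counts, the 8 smallest p-values with the block, any call without it, members known for polyadenylated mRNA, those nearest the count minimum, Slbp, Npat, Casp8ap2 and Hinfp, and up to 3 of the smallest p-values in each other list. Others are marked where they appear.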

Additional observations from a re-analysis of the deposited data

Results flagged for a closer look

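The response of Hist4h4 to DOX differed between the constructs by -0.94 on the log2 scale (MLL-AF9-i139 minus MLL-AF9-ieGFP) with clone and time point as a block, at an edgeR adjusted p of 0.0303, and was lower with DOX in 3 of 3 MLL-AF9-i139 clones. Without the block the difference was -0.90, at an edgeR adjusted p of 0.527. Because the control was 1 clone at 2 time points, the construct and that clone cannot be told apart.

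The summed level of the 58 genes with DOX over that without it was 1.07 in MLL-AF9-ieGFP and 0.774 in MLL-AF9-i139. All 3 clones moved down and both time points of the control moved up, and the difference of the sums was not tested. Groups of 2 and 3 libraries were not examined for outlying samples.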

How the results depend on the processing

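The number of histone genes called in MLL-AF9-i139 was 0 without a block. It was 5 with DESeq2, 3 in a fit of all 10 libraries, 2 with no filter on low counts and 33 with the replicate block. Leaving out 1 clone gave 0 to 41 calls without the block (41 without clone 3) and 1 to 49 with it (49 without clone 3). The cause was not tested. RLE scaling, library totals alone, TMM factors without the histone genes and a stricter filter gave 0. Beside the counts of 5, 33 and 41 the shares of all genes are given above, and for the other alternatives they were not determined. For the difference between constructs the count was 0, but 1 with the replicate block, and 0 to 15 when a library pair was left out (15 without clone 3). In MLL-AF9-ieGFP each alternative gave 0. The median log2 fold change of -0.40 ranged from -0.50 to -0.31 and the ratio of sums of 0.774 from 0.716 to 0.805 when a clone was left out, and neither changed direction. Of 431 alternative values for 31 named genes, 355 kept direction and call, 74 newly passed the threshold and 2 changed direction, both of Hist3h2ba: 0.19 without clone 2 (range -0.89 to 0.19 over the clones left out), and 0.27 with the block and without clone 2. With 3 clones, 1 of them treated for longer, and shared sequence between copies, single genes are less certain than class sums. Scalings, filters and leave-outs were mostly planned; library totals alone, TMM factors without the histone genes in some comparisons, and the block with a clone left out were chosen after seeing the data.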
